A study of Mus musculus with 8 samples.

Results

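Nuclear polyA RNA was set against cytoplasmic polyA RNA in MIN6 cells, a mouse insulinoma line that stands in for the pancreatic beta cell. The deposited unit is FPKM, by its name the fragments on a gene for each kilobase of its transcript and each 1000000 fragments mapped. The values do not sum as that definition would have them. Multiplied by transcript length in kilobases and summed, they came, in units of 1000000, to 0.097 and 0.065 in nuclear RNA and to 0.128 and 0.133 in cytoplasmic RNA, where fragments counted over these transcripts alone would give 1. What each library was divided by is not known, so levels are in the table's own unit and ratios between fractions depend on that scaling. Genes entered where their 4 MIN6 values averaged 1 FPKM or more, which gave 6017 of the 26520 genes in the deposited table. The groups were MIN6 nuclear RNA (2 libraries) and MIN6 cytoplasmic RNA (2 libraries), of 8 libraries in a series on mRNA held in nuclei that also covers mouse liver. Per the labels, all 4 came from MIN6 cultures in supplemented DMEM with no treatment or genotype named. Cells were opened with a mild NP-40 buffer and spun at low speed. The supernatant gave the cytoplasmic RNA, and the pellet was spun on through a sucrose cushion to give the nuclear RNA. MIN6 is a single tumour line kept in culture, so nothing here bears on beta cells in an islet. The labels do not say whether the libraries of a fraction came from separate cultures, and the p-values measure only the spread between these libraries, which may be technical.

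For all 4 MIN6 samples the source field names the other fraction than the title does. Fractions were taken from the titles, and every direction below would turn round if the source field were right. Neat1, the noncoding scaffold of nuclear paraspeckles, had values of 22.5 and 28.6 FPKM under the nuclear titles, against 3.05 and 2.68 FPKM under the cytoplasmic ones. Each library titled nuclear lay above each one titled cytoplasmic.

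An mRNA is made, capped, spliced and given its poly(A) tail in the nucleus, and then passes through the nuclear pores to be translated in the cytoplasm. At any moment the nuclear pool holds transcripts still being processed, transcripts on their way out, and transcripts that are kept back, for example because an intron is still in place. The cytoplasmic pool is set by export and by decay. In a beta cell, mRNAs for insulin and the other granule proteins make up a large share of the cytoplasmic pool. A comparison of this kind ranks genes by how their share of one pool compares with their share of the other. It does not measure the part of a gene's molecules that lies in the nucleus, because the amount of RNA in each fraction was not measured, and more cells or nuclei and more RNA in each cannot be told apart.

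Summed over all genes, the values came to 35469 and 35662 FPKM in nuclear RNA, against 60421 and 63355 FPKM in cytoplasmic RNA. The 10 highest genes made up 13.6% of the sum in nuclear replicate 1 and 36.8% in nuclear replicate 2. The highest value in nuclear replicate 2, 2073 FPKM, was that of 4 small RNA genes of 64 bases. Those genes were listed at 0 in nuclear replicate 1. The closeness of the nuclear sums, and the scaling by summed values used below, thus depend in part on such genes. Read counts were not used here. From the steps in which low values move, the reads behind the values were estimated, in units of 1000000, at 1.90 and 1.22 for nuclear RNA and 1.11 and 1.1 for cytoplasmic RNA. A transcript of 2 kb with 3 reads would be listed at 0.0769 to 0.0799 FPKM in a nuclear library and at 0.173 to 0.181 FPKM in a cytoplasmic one, counting error only. Of 18 beta-cell markers, 17 passed the filter, and the summed level of all 18 was 1401 and 1131 FPKM in nuclear RNA against 10720 and 11070 FPKM in cytoplasmic RNA. The glucose transporter Slc2a2 was the exception, at 0.0545 and 0 FPKM in nuclear RNA and listed at 0 in both cytoplasmic ones. Among markers of other cells, 2 of 6 for other islet cells, 6 of 7 for exocrine and duct cells, 4 of 7 for hepatocytes and 5 of 8 for stromal, endothelial, immune and red cells were listed at 0 in all 4 libraries. The list for other islet cells summed to 1.77 and 3.36 FPKM in nuclear RNA and 30.8 and 48.0 FPKM in cytoplasmic RNA, the exocrine list to 0.867 and 0.225 FPKM in nuclear RNA and 3.41 and 2.04 FPKM in cytoplasmic RNA, and the hepatocyte list to 4.51 and 2.24 FPKM in nuclear RNA and 27.8 and 24.2 FPKM in cytoplasmic RNA. The last list summed to 0.630 and 0.286 FPKM in nuclear RNA and to 0.319 and 0.443 FPKM in cytoplasmic RNA. Alb, Ptprc, Col3a1 and Prss1 were among the markers listed at 0 throughout. The duct marker Krt19 passed the filter and made up the whole sum of the exocrine and duct list. Cd68, an immune marker, was above 0 in all 4 libraries, at 0.426 and 0.213 FPKM in nuclear RNA and 0.319 and 0.443 FPKM in cytoplasmic RNA. The islet hormones Gcg and Sst, and Ttr, were present and are described with the beta-cell genes.

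Each gene was compared on the scale log2(FPKM + 1) with limma, with two-sided p-values adjusted over all 6017 genes by Benjamini-Hochberg, and a gene was called where the adjusted value was under 0.05. Ratios are nuclear over cytoplasmic, so a positive one means higher in the nuclear libraries. On the authors' scaling, 712 genes (11.8%) were nuclear calls, higher in nuclear RNA, and 2775 (46.1%) were cytoplasmic calls, and the median of all genes stood at −0.76. Where 0 lies is set by the scaling. When each library was divided by the median ratio of its genes to their geometric mean over the libraries (a scaling chosen after seeing the data), the median moved to 0.02, and 1687 genes (28.0%) were nuclear calls and 1550 (25.8%) cytoplasmic calls. All 712 nuclear calls were among those 1687, and 1550 of the 2775 cytoplasmic calls remained. Nuclear and cytoplasmic shares were 23.6% and 29.2% after median centring, 18.1% and 29.5% with values summing to 1000000, 23.3% and 33.3% after upper-quartile scaling and 20.0% and 32.5% with a length-weighted sum. In either direction, 58.0% of genes were called on the authors' scaling, 53.8% after median-ratio scaling, and 52.8%, 47.5%, 56.5% and 52.4% in the order of the last sentence. Over the authors' scaling and these 5 others, 706 nuclear calls and 1447 cytoplasmic calls were made every time, and no call turned to the other direction. Each of the 5 others moved the median of all genes toward the nuclear side, to between −0.43 and 0.02. Nuclear calls were thus hardly put to the test by them, and the 706 and 1447 do not compare how firm the directions are. Counts for gene groups below are given on the authors' scaling and after median-ratio scaling, since a group near the middle of the ranking can turn from one side to the other, and a group's share is to be read against the 11.8% and 46.1%, or the 28.0% and 25.8%, of all genes. With nuclear replicate 1 left out, 380 nuclear and 2294 cytoplasmic calls were left, and with nuclear replicate 2 left out 814 and 2224. With cytoplasmic replicate 1 left out, 64 nuclear and 987 cytoplasmic calls were left. With cytoplasmic replicate 2 left out, limma made 0 calls in either direction, and 2769 genes had an unadjusted p under 0.05.

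**Figure D1:**
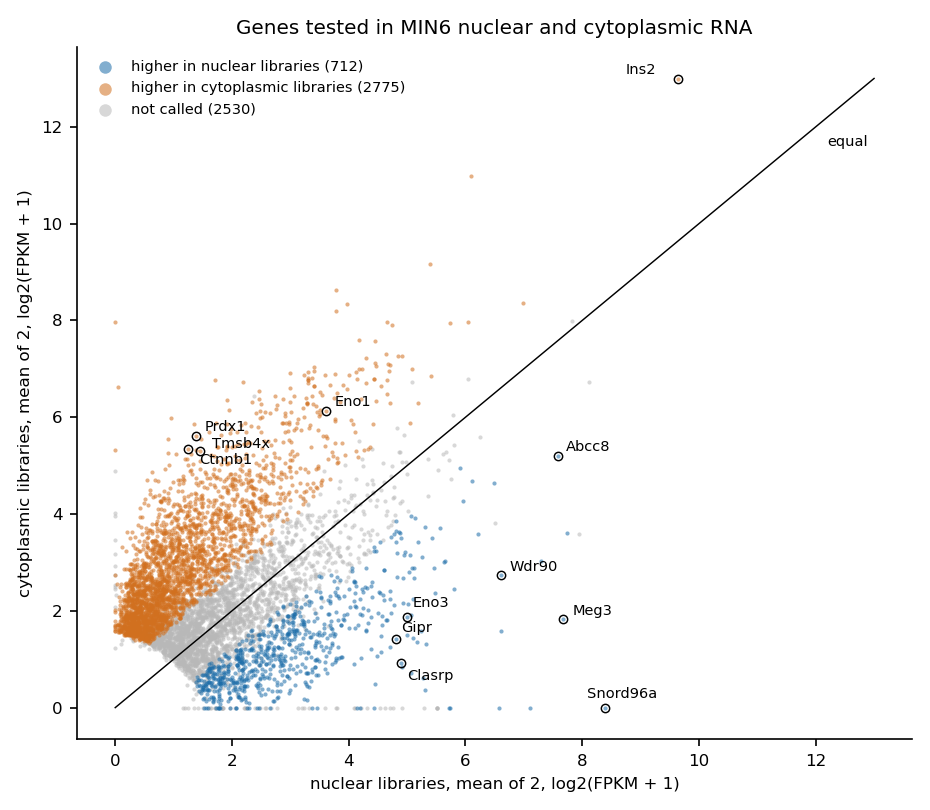
Mean of log2(FPKM + 1) of each of the 6017 genes in the nuclear libraries (horizontal axis) and in the cytoplasmic libraries (vertical axis), 1 point per gene, with called genes in colour and a line where both are equal. The nuclear calls (712) lie below that line and the cytoplasmic calls (2775) form a denser cloud above it.

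Most genes lay in both fractions. A mean of at least 1 FPKM was reached in both fractions by 3569 genes, in the nuclear fraction alone by 584 and in the cytoplasmic fraction alone by 1864. Among the 3569 present in both, 384 were nuclear calls (10.8%) and 1233 cytoplasmic calls (34.5%), against 11.8% and 46.1% of all genes. Both nuclear libraries lay above both cytoplasmic ones for 1256 genes (20.9%), and both cytoplasmic libraries above both nuclear ones for 3569 (59.3%). At the edge of the filter, the interferon receptor gene Ifnar2 was the last gene inside, at 0.466 and 0.238 FPKM in nuclear RNA and 0.583 and 2.71 FPKM in cytoplasmic RNA. Fryl was the first gene outside, at 0.943 and 1.18 FPKM in nuclear RNA and 0.608 and 1.27 FPKM in cytoplasmic RNA.

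Among called genes whose fractions did not overlap, with at least 10 FPKM on average in the higher fraction, and leaving out small RNA genes, Gm and Rik symbols and symbols carried by more than 1 gene, the 30 largest nuclear ratios ran from 2.92 to 5.86 and included several genes of RNA processing. Clasrp, a serine and arginine rich partner of the splicing kinase Clk4 (chromosome 7, 19581035 to 19604486, build mm10), stood at 52.6 and 15.5 FPKM in nuclear RNA, against 1.11 and 0.698 FPKM in cytoplasmic RNA. Its log2 ratio was 3.98 (adjusted p = 0.00394, SE 0.58), and the fractions did not overlap. Rsrp1, which encodes another arginine and serine rich protein, stood at 32.6 and 29.3 FPKM in nuclear RNA against 2.00 and 1.68 FPKM in cytoplasmic RNA, a log2 ratio of 3.49 (adjusted p = 0.00144, SE 0.24). Here the nuclear libraries lay close together, unlike for most genes at the top. Arglu1, a coactivator that also bears on splicing, was at 34.4 and 18.1 FPKM in nuclear RNA and 1.52 and 1.24 FPKM in cytoplasmic RNA (log2 ratio 3.46). Ccnl2, the cyclin L2 that partners the Cdk11 kinases, was at 17.9 and 14.2 FPKM in nuclear RNA and 1.08 and 0.676 FPKM in cytoplasmic RNA (log2 ratio 3.18). For all of these genes each nuclear library lay well above each cytoplasmic one. Safb2, a nuclear matrix attachment factor, reached a log2 ratio of 3.35, and Akap8l, named for its likeness to the kinase anchor Akap8, one of 3.67. Pan2, the catalytic subunit of a deadenylase that trims poly(A) tails, stood at 16.5 and 4.38 FPKM in nuclear RNA against 0.256 and 0 FPKM in cytoplasmic RNA.

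Other genes of this group act at the cell surface, in the centrosome and in metabolism. Gipr, the receptor through which the gut hormone GIP raises insulin secretion (chromosome 7, 19156061 to 19166127), stood at 39.5 and 18.3 FPKM in nuclear RNA, against 2.04 and 1.34 FPKM in cytoplasmic RNA. Its log2 ratio was 3.39 (adjusted p = 0.00276, SE 0.42), and it was called with 3 of the 4 libraries left out in turn, but not without cytoplasmic replicate 2. Mapk8ip3, a scaffold that joins the JNK kinases to kinesin motors, stood at 33.8 and 31.3 FPKM in nuclear RNA against 3.52 and 2.11 FPKM in cytoplasmic RNA, a log2 ratio of 3.16 (adjusted p = 0.00162, SE 0.29). Of its exon bases, 20.4% also lie in exons of another gene, and the sources used here do not say how such reads were assigned. The centrosomal proteins were represented by Cchcr1 (log2 ratio 3.40) and Lrrc45 (3.12), and the cilium by Ift172 (2.92), a subunit of the transport train that builds it. Wdr90, which encodes a WD repeat protein, was among the more abundant, at 127 and 72.8 FPKM in nuclear RNA against 3.67 and 8.45 FPKM in cytoplasmic RNA. Metap1d, a mitochondrial methionine aminopeptidase, had a wide spread, with 47.8 and 9.37 FPKM in nuclear RNA and 1.63 and 0.683 FPKM in cytoplasmic RNA. Its log2 ratio was 3.42 with an SE of 0.75. Cpt1c, the brain form of carnitine palmitoyltransferase, had a log2 ratio of 3.08, and Lrrc16b, a relative of the actin capping protein regulators, one of 3.82. Erdr1 was at 16.9 and 4.95 FPKM in nuclear RNA and was listed at 0 in both cytoplasmic ones.

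**Figure D2:**
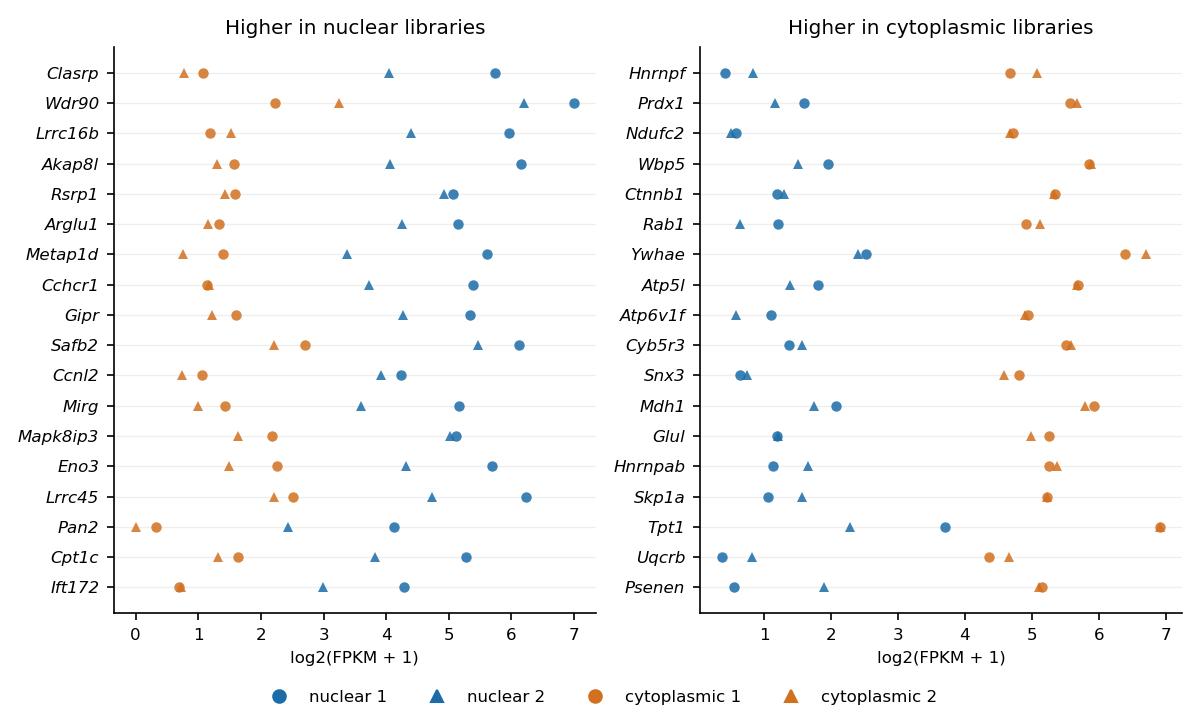
Log2(FPKM + 1) of leading genes in each library, with nuclear libraries in blue, cytoplasmic ones in orange, circles for replicate 1 and triangles for replicate 2, nuclear calls in the left panel and cytoplasmic calls in the right. In every gene shown the points of one fraction lie clear of those of the other, and in the left panel nuclear replicate 1 is the higher of the nuclear pair.

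Chosen in the same way, the 30 largest cytoplasmic ratios ran from −5.06 to −3.91 and held housekeeping, transport and redox genes. Hnrnpf, an RNA-binding protein of the splicing machinery (chromosome 6, 117900324 to 117925622), stood at 0.335 and 0.785 FPKM in nuclear RNA, against 24.6 and 32.6 FPKM in cytoplasmic RNA. Its log2 ratio was −4.25 (adjusted p = 0.00144, SE 0.29). Ctnnb1, which encodes beta-catenin of cell junctions and Wnt signalling (chromosome 9, 120929216 to 120960507), stood at 1.29 and 1.45 FPKM in nuclear RNA and at 39.9 and 39.2 FPKM in cytoplasmic RNA, a log2 ratio of −4.10 (adjusted p = 0.00144, SE 0.24). With 15 exons it was not a short gene. In both cases each cytoplasmic library lay more than 10 times above each nuclear one. Prdx1, a peroxiredoxin that removes hydrogen peroxide, was at 2.03 and 1.24 FPKM in nuclear RNA and 46.3 and 49.9 FPKM in cytoplasmic RNA (log2 ratio −4.23). Rab1, the small GTPase of transport out of the endoplasmic reticulum, was at 1.31 and 0.562 FPKM in nuclear RNA and 29.2 and 34.0 FPKM in cytoplasmic RNA (−4.10). Ywhae, the epsilon form of the 14-3-3 adaptors, was at 4.77 and 4.28 FPKM in nuclear RNA and 83.5 and 103 FPKM in cytoplasmic RNA (−4.09). In each of these genes the cytoplasmic pair lay close together beside the gap between the fractions.

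The same group held Cyb5r3, the cytochrome b5 reductase (log2 ratio −4.08), Snx3, a sorting nexin of endosomes (−4.01), Mdh1, the cytosolic malate dehydrogenase (−3.95), and Skp1a, a subunit of SCF ubiquitin ligases (−3.93). It also held Glul, the glutamine synthetase, at 1.27 and 1.30 FPKM in nuclear RNA and 37.4 and 30.8 FPKM in cytoplasmic RNA (−3.93). Respiratory chain and pump subunits were Ndufc2 of complex I (−4.15), Uqcrb of complex III (−3.92), Atp5l of the ATP synthase (−4.09) and Atp6v1f of the vacuolar proton pump (−4.08). Psenen, a subunit of gamma-secretase, had a log2 ratio of −3.91, and Tpt1, the translationally controlled tumour protein, one of −3.93. Tpt1 differed between the nuclear libraries, at 12 and 3.86 FPKM, against 120 and 119 FPKM in cytoplasmic RNA, and remained clear of them.

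Genes whose proteins handle RNA were divided. A list of CLK, DYRK, SR protein and related kinases, some of which phosphorylate splicing factors, had 10 tested members. Of these, 7 were nuclear calls and 2 cytoplasmic, with the same counts on both scalings and a median of 1.46. The counts were 3 and 1 without nuclear replicate 1. With no filter on low values, where more of the list were tested, they were 4 and 5, with a median of −0.11. Clk1 stood at 28.0 and 20.6 FPKM in nuclear RNA against 2.45 and 2.56 FPKM in cytoplasmic RNA, a log2 ratio of 2.84 (adjusted p = 0.00169, SE 0.27). Clk2 (2.07), Clk3 (1.51), Cdk11b (2.68), Srpk1 (1.40) and Srpk2 (0.89) were nuclear calls as well. Dyrk1a (−1.77) and Hipk3 (−1.99) were the cytoplasmic ones. The hnRNP proteins had 1 nuclear and 10 cytoplasmic calls of 18, and 4 and 7 after median-ratio scaling, a cytoplasmic share of 55.6% against the 46.1% of all genes. Hnrnph1, the nuclear call, stood at 26.8 and 30.9 FPKM in nuclear RNA against 11 and 9.67 FPKM in cytoplasmic RNA, a log2 ratio of 1.40 (adjusted p = 0.00687, SE 0.25).

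Most RNA-handling groups turned with the scaling. DEAD and DEAH box helicases, which unwind RNA, had 6 nuclear and 8 cytoplasmic calls of 35 on the authors' scaling, and 18 and 4 after median-ratio scaling. For mRNA decay the counts were 4 and 15 of 44, and then 20 and 6. For cleavage and polyadenylation they were 3 and 7 of 26, and then 12 and 3. For mRNA export they were 4 and 12 of 36, and then 14 and 8. On the authors' scaling the counts of these 4 groups were 4 and 6, 2 and 9, 0 and 6, and 1 and 10 with nuclear replicate 1 left out. The medians of these 4 groups on the authors' scaling, 0.25, −0.19, 0.31 and −0.48, all lay above the −0.76 of all genes. Ddx39b, a helicase of splicing and export, was at 95.4 and 38.9 FPKM in nuclear RNA and 21.7 and 15.2 FPKM in cytoplasmic RNA (log2 ratio 1.69). Skiv2l, the helicase that feeds RNA to the cytoplasmic exosome, was at 39.0 and 17.7 FPKM in nuclear RNA and 5.56 and 1.85 FPKM in cytoplasmic RNA (2.66). Ints1 of the Integrator complex (2.70) and Srrt, a partner of the cap-binding complex (2.20), were nuclear calls too, while the poly(A) polymerase Papola (−2.91) and the import adaptor Kpna2 (−2.76) were cytoplasmic.

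In the DNA damage response, 12 of 44 were nuclear calls and 5 cytoplasmic, with 25 and 3 after median-ratio scaling, and the median was 0.43. Leaving out nuclear replicate 1 gave 7 and 4. Recql4, a DNA helicase, stood at 14.4 and 4.82 FPKM in nuclear RNA against 0.579 and 0.303 FPKM in cytoplasmic RNA, a log2 ratio of 2.72 (adjusted p = 0.00735, SE 0.50). Fanca, of the Fanconi anaemia repair complex, was at 13.6 and 10.1 FPKM in nuclear RNA and 1.98 and 2.58 FPKM in cytoplasmic RNA (1.96). Zinc finger genes of the Zfp series had 12 nuclear and 11 cytoplasmic calls of 46, and 19 and 2 after median-ratio scaling. They had 6 and 8 without nuclear replicate 1, and with no filter on low values 10 and 33. Chromatin regulators turned, with 14 nuclear and 20 cytoplasmic calls of 85, and 33 and 7 after that scaling, and 5 and 15 without nuclear replicate 1. The histone methyltransferase Kmt2b (2.51) and the deacylase Sirt7 (2.19) were nuclear calls, and the heterochromatin protein Cbx3 (−2.65) and the cohesin subunit Rad21 (−2.44) cytoplasmic ones. Among subunits of Mediator, which links transcription factors to RNA polymerase II, 2 of 21 were nuclear calls and 10 cytoplasmic, with 4 and 7 after median-ratio scaling. Those shares on the authors' scaling, 9.5% and 47.6%, lay near the shares of all genes.

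**Figure D3:**
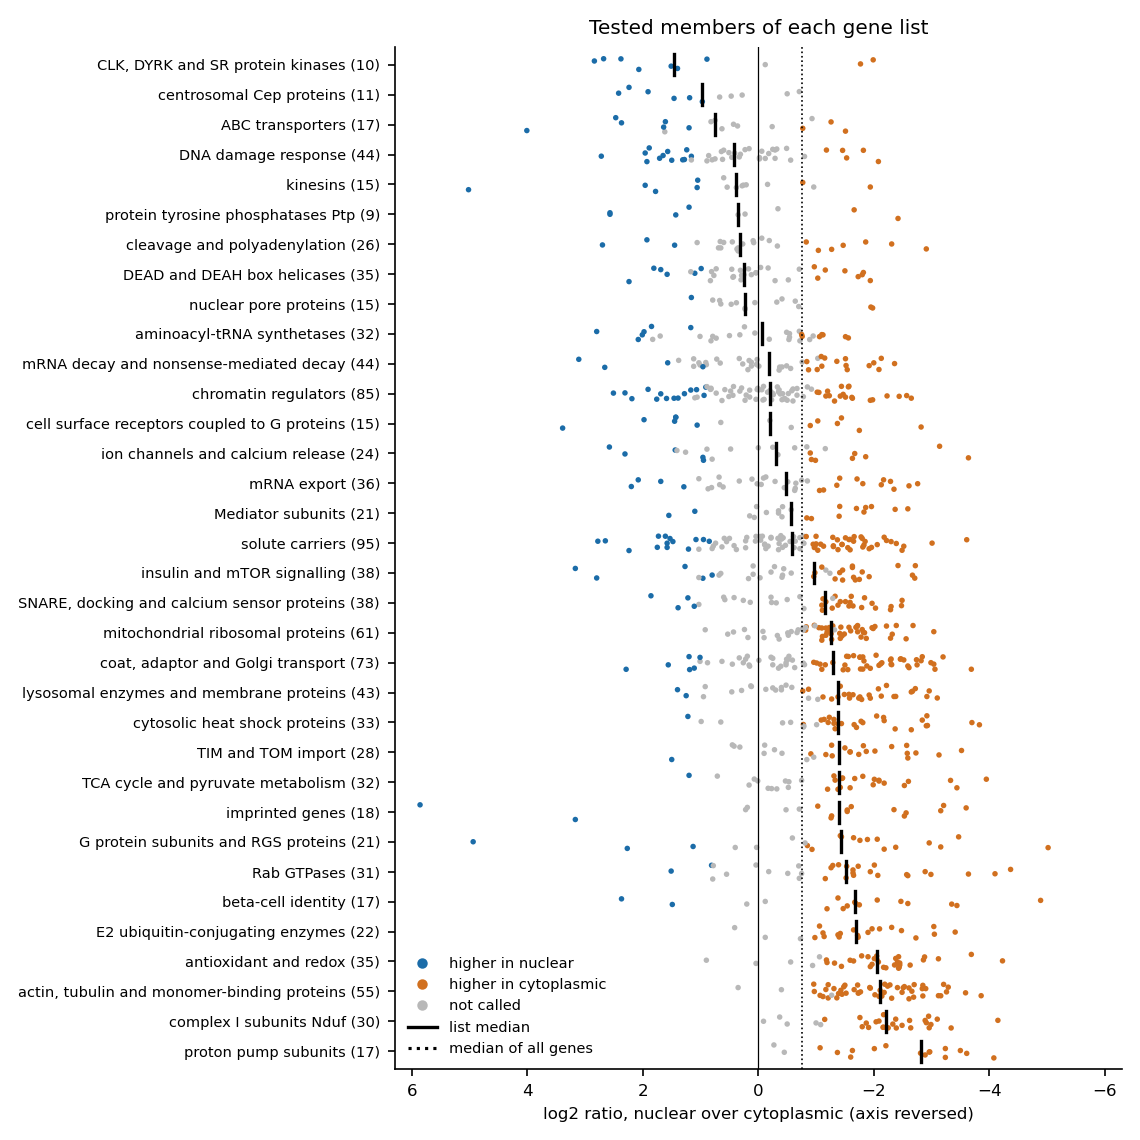
Log2 ratio, nuclear over cytoplasmic, of the members of selected gene groups on the authors' scaling, 1 point per gene with calls in colour, the group median as a bar and the median of all genes (−0.76) as a dotted line, on an axis that runs from nuclear at the left to cytoplasmic at the right. The median of the CLK, DYRK, SR protein and related kinases (1.46) lies farthest to the left and that of the proton pump subunits (−2.81) farthest to the right. Most groups spread over both sides of the dotted line.

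Ion channels had 5 nuclear and 8 cytoplasmic calls of 24, and 11 and 4 after median-ratio scaling. They had 2 and 6 with nuclear replicate 1 left out. Cacna1h, a T-type calcium channel, stood at 6.80 and 12.8 FPKM in nuclear RNA against 1.04 and 0.477 FPKM in cytoplasmic RNA, a log2 ratio of 2.58 (adjusted p = 0.0039, SE 0.37). The potassium channel Kcnh6 had a log2 ratio of 2.31, and Vdac1, the porin of the outer mitochondrial membrane, one of −3.64. Of 15 receptors coupled to G proteins, 6 were nuclear and 6 cytoplasmic calls, and 7 and 1 after median-ratio scaling, and 2 and 2 without nuclear replicate 1. ABC transporters held more nuclear than cytoplasmic calls on every scaling run, with 6 and 3 of 17 on the authors' and 11 and 0 after median-ratio scaling. Without nuclear replicate 1 they had 3 and 0, and with no filter on low values 4 and 4. Solute carriers turned, with 14 nuclear and 39 cytoplasmic calls of 95, and 29 and 19 after that scaling, and 8 and 25 without nuclear replicate 1. G protein subunits and RGS proteins held more cytoplasmic calls on every scaling run, with 3 and 14 of 21 on the authors' and 4 and 10 after median-ratio scaling. Gnb1, a beta subunit, was at 2.76 and 2.75 FPKM in nuclear RNA and 37.6 and 44.1 FPKM in cytoplasmic RNA (−3.47), whereas Rgs9, which speeds the return of G proteins to rest, was at 32.4 and 16.3 FPKM in nuclear RNA and 2.75 and 5.66 FPKM in cytoplasmic RNA (2.27).

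In insulin and mTOR signalling, 5 of 38 genes were nuclear calls and 18 cytoplasmic, with 11 and 11 after median-ratio scaling. The shares on the authors' scaling, 13.2% and 47.4%, lay near those of all genes, and without nuclear replicate 1 the counts were 2 and 18. Rps6kb2, an S6 kinase, stood at 30.3 and 9.87 FPKM in nuclear RNA against 1.67 and 0.569 FPKM in cytoplasmic RNA, a log2 ratio of 3.17 (adjusted p = 0.00716, SE 0.57). Of its exon bases, 23.7% are shared with another gene. Tsc2, which switches off Rheb, was at 20.6 and 6.91 FPKM in nuclear RNA and 0.858 and 0.898 FPKM in cytoplasmic RNA (2.80). Rheb itself, the GTPase that activates mTOR, was at 0.328 and 0.273 FPKM in nuclear RNA and 3.83 and 3.23 FPKM in cytoplasmic RNA (−1.80). Among protein tyrosine phosphatases, Ptpn23 and Ptprs both had a log2 ratio of 2.57.

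Kinesin and Cep genes lay toward the nuclear side, and the building blocks of the cytoskeleton toward the cytoplasmic side. Of 15 kinesins, 5 were nuclear calls and 2 cytoplasmic, and 11 and 1 after median-ratio scaling. Without nuclear replicate 1 they had 3 and 1. Of 11 centrosomal Cep genes, 6 were nuclear calls and the other 5 were not called, and 9 were nuclear after that scaling, among them Cep131 (2.42). Both groups held more nuclear than cytoplasmic calls on each of the 5 other scalings. Without nuclear replicate 1 the Cep genes had 2 nuclear calls and none cytoplasmic. With no filter on low values they had 3 and 5, and the kinesins 5 and 4. Myo9b, an unconventional myosin, stood at 13.5 and 6.17 FPKM in nuclear RNA against 0.381 and 0.532 FPKM in cytoplasmic RNA, a log2 ratio of 2.81 (adjusted p = 0.00364, SE 0.39). Collagens, of which 5 passed the filter, had 3 nuclear calls and 1 cytoplasmic call, and 4 and 1 after median-ratio scaling, with Col16a1 at 2.64. By contrast, of 55 genes for actin, tubulin and proteins that bind their monomers, 52 were cytoplasmic calls and the other 3 were not called. After median-ratio scaling 1 was nuclear and 35 cytoplasmic. Tmsb4x, the actin-sequestering thymosin beta-4, was at 2.31 and 1.27 FPKM in nuclear RNA and 38.3 and 39.1 FPKM in cytoplasmic RNA (−3.86). Actb, beta-actin, was at 9.61 and 12.6 FPKM in nuclear RNA and 112 and 120 FPKM in cytoplasmic RNA (−3.29), and Dstn, an actin-severing protein, had a log2 ratio of −3.59.

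Groups of the secretory and endosomal route held more cytoplasmic than nuclear calls on every scaling run, with exceptions among single genes. Of 31 Rab GTPases, which direct vesicles, 2 were nuclear calls and 20 cytoplasmic. Of 38 SNARE, docking and calcium sensor genes, 4 were nuclear and 21 cytoplasmic, shares of 10.5% and 55.3% beside the 11.8% and 46.1% of all genes. Of 73 coat, adaptor and Golgi genes, 6 were nuclear and 42 cytoplasmic. Of 43 lysosomal genes, 2 were nuclear and 26 cytoplasmic, and of 17 proton pump subunits 15 were cytoplasmic and none had a ratio above −0.27. After median-ratio scaling the nuclear and cytoplasmic counts for these 5 groups were 6 and 15, 8 and 12, 16 and 28, 9 and 17, and 1 and 11. Rab11a, the GTPase of recycling endosomes, was at 0.631 and 0.321 FPKM in nuclear RNA and 16.4 and 18.3 FPKM in cytoplasmic RNA (−3.64). Arf1, which recruits coats, had a log2 ratio of −3.20, the cargo receptor Tmed2 one of −3.69, the protease Ctsd one of −2.92 and the pump subunit Atp6v0c one of −3.50. The exceptions included Ap1g2, a gamma subunit of the AP-1 adaptor, at 9.30 and 4.77 FPKM in nuclear RNA and 0.294 and 0.923 FPKM in cytoplasmic RNA (2.29, SE 0.39, adjusted p = 0.00604). Unc13a, which primes vesicles for release, was at 7.27 and 9.28 FPKM in nuclear RNA and 2.13 and 2.98 FPKM in cytoplasmic RNA (1.39). Stx5a, the Golgi SNARE, was at 40.3 and 28.9 FPKM in nuclear RNA and 13.7 and 14.6 FPKM in cytoplasmic RNA (1.22), and Stxbp2 had a log2 ratio of 1.86.

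Beta-cell identity genes had 2 nuclear and 13 cytoplasmic calls of 17 on the authors' scaling and 4 and 6 after median-ratio scaling. The transcription factor Pdx1, which drives insulin transcription, stood at 0.585 and 0.754 FPKM in nuclear RNA against 6.54 and 10.3 FPKM in cytoplasmic RNA, a log2 ratio of −2.47 (adjusted p = 0.00264, SE 0.30). Mafa (−1.54), Neurod1 (−1.19) and Nkx6-1 (−1.47) were cytoplasmic calls, of which Neurod1 and Nkx6-1 were not called after median-ratio scaling. Nkx2-2 was not called, at 3.41 and 2.27 FPKM in nuclear RNA and 3.25 and 3.01 FPKM in cytoplasmic RNA, and its ratio of −0.12 turned to 0.75 after median-ratio scaling (adjusted p = 0.0484). The subunits of the ATP-sensitive potassium channel, which couples glucose metabolism to insulin release, lay on opposite sides. Abcc8, its sulfonylurea receptor, had a log2 ratio of 2.37, and Kcnj11, its pore, stood at 0.395 and 1.44 FPKM in nuclear RNA against 4.32 and 5.45 FPKM in cytoplasmic RNA, a log2 ratio of −1.67 (adjusted p = 0.0112, SE 0.35). After median-ratio scaling the ratio of Kcnj11 was −0.88 and was not called. The zinc transporter Slc30a8 overlapped between fractions, at 10.5 and 6.11 FPKM in nuclear RNA and 6.59 and 7.14 FPKM in cytoplasmic RNA, and was not called (0.20), but became a nuclear call after median-ratio scaling (1.24, adjusted p = 0.0145) and upper-quartile scaling (0.90). The hormones Ins1 (−3.44), Ins2 (−3.35) and Iapp (−4.89) were cytoplasmic calls. So were Gcg, glucagon, at 1.21 and 1.32 FPKM in nuclear RNA and 23.1 and 27.4 FPKM in cytoplasmic RNA (−3.53), Sst, somatostatin (−2.98), and Ttr, transthyretin, which islet cells make as well as liver (−2.68).

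Of 35 antioxidant and redox genes, 30 were cytoplasmic calls and the other 5 were not called, with 2 nuclear and 25 cytoplasmic calls after median-ratio scaling. Among them the metallothionein Mt1 was at 10.8 and 14.7 FPKM in nuclear RNA and 120 and 114 FPKM in cytoplasmic RNA (−3.12). Of 30 Nduf subunits of complex I, 25 were cytoplasmic calls and no ratio was above −0.09, with 1 nuclear and 22 cytoplasmic calls after that scaling. Of 61 mitochondrial ribosomal proteins, 42 were cytoplasmic calls and the other 19 were not called, with 7 and 18 after that scaling. The TIM and TOM import machinery had 1 and 18 of 28, and 4 and 13 after that scaling, and its nuclear call on the authors' scaling was Timm44 (1.50). In the TCA cycle and pyruvate metabolism, 1 of 32 was nuclear and 20 were cytoplasmic, and 4 and 12 after that scaling. The nuclear call on the authors' scaling was Pcx, pyruvate carboxylase, at 10.5 and 4.89 FPKM in nuclear RNA and 2.32 and 2.88 FPKM in cytoplasmic RNA (1.20, SE 0.38, adjusted p = 0.0419). Sdhc, a subunit of succinate dehydrogenase, was at 0.155 and 0.137 FPKM in nuclear RNA and 12.9 and 10.1 FPKM in cytoplasmic RNA (−3.44). Of 22 E2 ubiquitin-conjugating enzymes, 19 were cytoplasmic calls and the other 3 were not called, with 1 nuclear and 13 cytoplasmic calls after that scaling, and Ube2s stood at 9.53 and 8.18 FPKM in nuclear RNA against 100.3 and 107 FPKM in cytoplasmic RNA (−3.41). The large and multi-subunit E3 ubiquitin ligases turned, with 4 and 12 of 38, and then 18 and 6. Cytosolic heat shock genes had 1 nuclear and 25 cytoplasmic calls of 33, and 3 and 17 after median-ratio scaling, among the cytoplasmic ones Fkbp4, a co-chaperone of steroid receptors, at 2.92 and 2.15 FPKM in nuclear RNA and 49.1 and 48.8 FPKM in cytoplasmic RNA (−3.83).

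Aminoacyl-tRNA synthetases, which load amino acids onto tRNAs, had 6 nuclear and 7 cytoplasmic calls of 32, and 15 and 2 after median-ratio scaling. Without nuclear replicate 1 they had 4 and 8, with a median of −0.49. Cars, the cytosolic enzyme for cysteine, stood at 80.5 and 26.7 FPKM in nuclear RNA against 12.6 and 11.7 FPKM in cytoplasmic RNA, a log2 ratio of 1.85 (adjusted p = 0.0299, SE 0.53). Its mitochondrial counterpart Cars2 was at 16.9 and 9.54 FPKM in nuclear RNA and 0.813 and 1.14 FPKM in cytoplasmic RNA (2.80). The mitochondrial enzymes Hars2, at 3.40 and 3.65 FPKM in nuclear RNA and 0 and 0.268 FPKM in cytoplasmic RNA, and Tars2 (1.98) were nuclear calls, as was the cytosolic Vars (1.17). Aars2 was at 5.97 and 1.55 FPKM in nuclear RNA and was listed at 0 in both cytoplasmic ones. Of the 58 groups with at least 5 tested members, 12 held more nuclear than cytoplasmic calls on every scaling run. Another 21 held more cytoplasmic calls on every one, and 25 turned or were level on at least 1. The 6017 genes turned too, with 712 nuclear and 2775 cytoplasmic calls on the authors' scaling and 1687 and 1550 after median-ratio scaling. A group that turned thus need not differ from all genes, and the Mediator subunits, near the shares of all genes, were among the 21. The other scalings all moved the median toward the nuclear side, so the 12 were hardly put to the test by them.

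The ratio was ordered more by coding length and exon number than by level. Across 5804 protein-coding genes in 5 bins of coding length, the median log2 ratio was −1.71 in the shortest bin (up to 666 bases), then −1.12, −0.69 and −0.28, and 0.16 in the longest (from 2394 bases). The shortest bin held 12 nuclear and 927 cytoplasmic calls of 1164 genes, and the longest 270 and 230 of 1158. Exon number gave a like order, from −1.57 with 1 to 5 exons to 0.17 with 19 or more. Among 65 genes with 1 exon, 1 was a nuclear call and 56 were cytoplasmic, and among 122 with at least 40 exons, 36 were nuclear and 16 cytoplasmic. GC content of the transcript gave medians from −1.34 in the lowest bin to 0.04 in the highest. The length of the 3′ untranslated region ran the other way at its upper end, with medians of −0.60, −0.43, −0.52, −0.82 and −1.19. By mean FPKM, from low to high, the medians were −0.64, −0.57, −0.70, −0.77 and −1.61, so the highest bin stood apart.

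As a description over genes, which are not replicates and share the same 4 libraries, the Spearman coefficient with the ratio was 0.50 for coding length, 0.48 for exon number, 0.34 for GC content, −0.16 for the length of the 3′ untranslated region, 0.07 for gene span and −0.19 for mean FPKM. After median-ratio scaling the same coefficients were 0.50, 0.49, 0.36, −0.19, 0.05 and −0.08. With genes divided into 3 classes by GC content and 3 by exon number, the corners stood farthest apart. Of 606 genes in the upper class for both, 247 were nuclear calls (40.8%) and 36 cytoplasmic (5.94%), with a median of 0.79. Of 659 genes in the lower class for both, 7 were nuclear (1.06%) and 552 cytoplasmic (83.8%), with a median of −1.65. Coding and untranslated lengths were added after the data had been seen. Transcript length, which had been planned, gave a lower coefficient of 0.23, and of 0.21 after median-ratio scaling. The 30 leading nuclear genes had a median of 17 exons and 57.4% GC, and the 30 leading cytoplasmic genes of 4.5 exons and 48.9% GC.

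**Figure D4:**
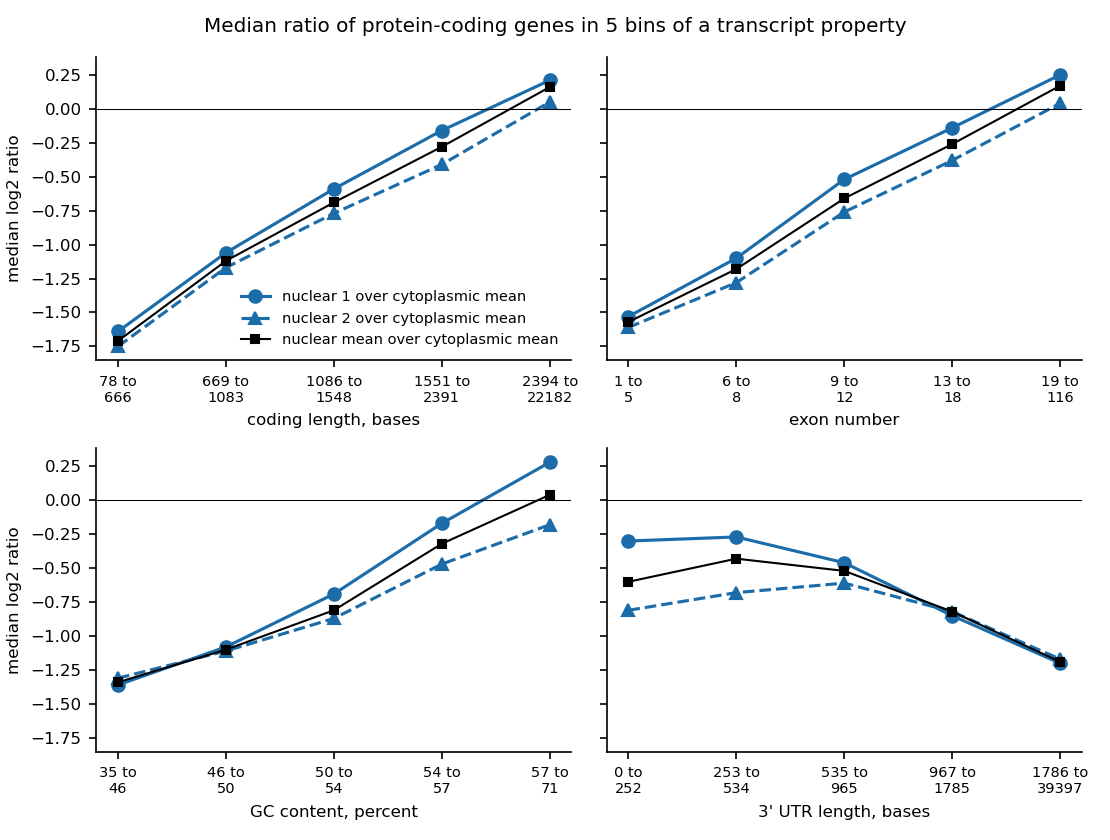
Median log2 ratio (vertical axis) of 5804 protein-coding genes in 5 bins of a transcript property (horizontal axis, low to high), for nuclear replicate 1 (blue circles), nuclear replicate 2 (blue triangles) and their mean (black squares), each over the cytoplasmic mean. The medians climb over the bins of coding length, exon number and GC content, and for the 3′ untranslated region they run from −0.60 in the shortest bin to −1.19 in the longest.

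Part of this gradient differed between the nuclear libraries. The difference of nuclear replicate 1 and nuclear replicate 2 gave a Spearman coefficient of 0.31 with GC content, −0.39 with the length of the 3′ untranslated region, 0.10 with exon number and 0.01 with coding length. In the highest GC bin the median ratio to the cytoplasmic mean was 0.28 for nuclear replicate 1 and −0.18 for nuclear replicate 2. In the longest coding bin it was 0.21 and 0.05. The order by coding length and by exons was thus present with either nuclear library over the cytoplasmic mean, with coefficients for coding length of 0.46 and 0.53. Both coefficients use the same cytoplasmic mean, so an order within the cytoplasmic libraries alone would appear in both. What moved the nuclear libraries apart was not tested.

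Some genes encode the same protein from different transcripts. From the GENCODE coding sequences, 15 tested genes in 7 groups encode a protein identical to that of another tested gene, and all 15 were cytoplasmic calls, against 46.1% of all genes. After median-ratio scaling Cdk2ap1, H3f3b and Gm4353 were not called. The histone H3.3 genes differed most within a group. H3f3a stood at 2.63 and 1.95 FPKM in nuclear RNA against 117 and 100.0 FPKM in cytoplasmic RNA, a log2 ratio of −5.06 (adjusted p = 0.00144, SE 0.26). H3f3b stood at 5.89 and 4.17 FPKM in nuclear RNA against 18.7 and 18.4 FPKM in cytoplasmic RNA, a log2 ratio of −1.71 (adjusted p = 0.00485, SE 0.27), which was −0.65 and not called after median-ratio scaling. Of the exon bases of H3f3a, 22.8% are shared with another annotated gene. The coding sequences, of 411 bases each, differ at 95 bases (76.9% identity). The start of each is shown because the sequences set apart transcripts that give a single protein, with bases in capitals where the pair differs (coding bases 1 to 90, build GRCm38, H3f3a on the minus strand of chr1:180800832-180813943 and H3f3b on the minus strand of chr11:116021912-116027962, both genes spanning several exons).
H3f3a: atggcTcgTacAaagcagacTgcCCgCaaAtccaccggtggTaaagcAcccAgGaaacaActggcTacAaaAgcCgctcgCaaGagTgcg
H3f3b: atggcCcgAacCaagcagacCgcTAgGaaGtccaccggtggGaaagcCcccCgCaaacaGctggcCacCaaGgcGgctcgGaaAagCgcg

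Other groups were Rpl36a (−2.56) and Rpl36al (−2.77), Ftl1 (−2.34) and Gm10116 (−3.02), Cdk2ap1 (−1.41) and Gm12184 (−1.57), Nup35 (−1.95) and Gm4353 (−1.24), and Eno1 (−2.52) and Eno1b (−2.40). Several of these second copies have 1 or 2 exons, and reads of near-identical copies may have been split between them, so the ratios within such pairs are uncertain.

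Relatives with different proteins could lie on opposite sides. The muscle enolase Eno3 (chromosome 11, 70657202 to 70662513) stood at 50.6 and 18.9 FPKM in nuclear RNA against 3.76 and 1.82 FPKM in cytoplasmic RNA, a log2 ratio of 3.13 (adjusted p = 0.00613, SE 0.53). Eno1, the common form of this glycolytic enzyme, stood at 12.6 and 9.86 FPKM in nuclear RNA against 67.2 and 70.3 FPKM in cytoplasmic RNA, a log2 ratio of −2.52 (adjusted p = 0.00181, SE 0.26). The same held for the incretin receptors, with Gipr described above and Glp1r, the receptor for GLP-1, at 1.08 and 2.24 FPKM in nuclear RNA and 6.91 and 8.67 FPKM in cytoplasmic RNA (−1.75, SE 0.32, adjusted p = 0.00728). After median-ratio scaling the ratio of Glp1r was −0.84 and was not called. The fatty acid receptor Ffar1 had a log2 ratio of −2.82. The granule phosphatase-like protein Ptprn had a log2 ratio of 1.43, and Ptprn2, its relative, stood at 0.884 and 0.566 FPKM in nuclear RNA against 11.2 and 5.92 FPKM in cytoplasmic RNA (−2.42). These pairs were chosen after their values were seen, and no difference between genes of a pair was tested.

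**Figure D5:**
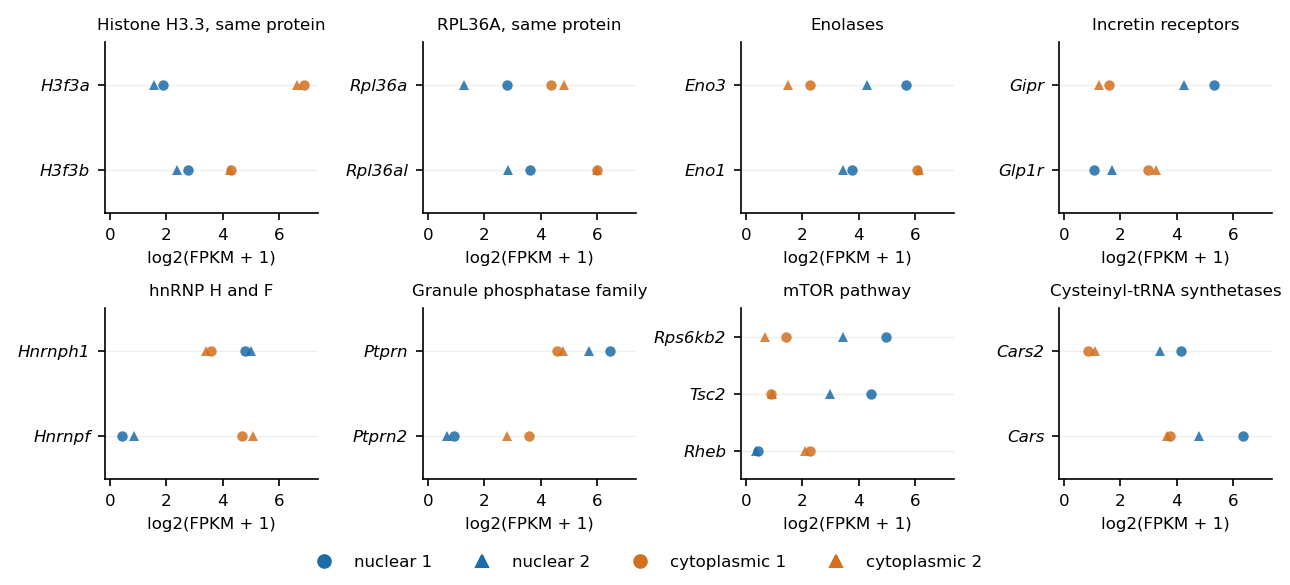
Log2(FPKM + 1) of related genes in each library, with nuclear libraries in blue and cytoplasmic ones in orange, circles for replicate 1 and triangles for replicate 2. Eno3, Gipr, Hnrnph1 and Ptprn have their nuclear points on the higher side, while Eno1, Glp1r, Hnrnpf and Ptprn2 have theirs on the lower side.

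Of 57 genes tested with a long noncoding biotype in the annotation, 11 were nuclear calls and 21 cytoplasmic, and 24 and 12 after median-ratio scaling. Coding genes had 685 and 2696 of 5804 on the authors' scaling and 1642 and 1494 after median-ratio scaling. The class takes in processed transcripts, and its cytoplasmic calls include Cct6a (−2.28) and Ifi30 (−1.77), which are known as protein genes. Mirg, which hosts a cluster of microRNAs in the imprinted Dlk1 and Meg3 region (chromosome 12, 109729764 to 109749460), stood at 34.7 and 11.1 FPKM in nuclear RNA against 1.68 and 0.998 FPKM in cytoplasmic RNA, a log2 ratio of 3.17 (adjusted p = 0.00639, SE 0.55). Gm26917 was at 3.44 and 3.25 FPKM in nuclear RNA and 0.359 and 0 FPKM in cytoplasmic RNA (1.90). Snhg12, a host gene of small nucleolar RNAs, was at 3.58 and 3.42 FPKM in nuclear RNA and 0.666 and 0 FPKM in cytoplasmic RNA (1.80). On the cytoplasmic side, Gm26825 was at 3.35 and 4.88 FPKM in nuclear RNA and 79.2 and 77.2 FPKM in cytoplasmic RNA (−3.97, SE 0.27, adjusted p = 0.00144). 1190002F15Rik (−2.72) and 1810058I24Rik (−2.25) were cytoplasmic as well. Of 18 imprinted genes, Meg3 and Mirg were the nuclear calls and 12 were cytoplasmic, with 2 and 6 calls after median-ratio scaling. Dlk1, the coding gene of the same region, stood at 5.23 and 1.31 FPKM in nuclear RNA against 36.0 and 12 FPKM in cytoplasmic RNA (−2.53, SE 0.67, adjusted p = 0.024), and was not called with any single library left out. Igf2 had a log2 ratio of −3.60, with 64.5% of its exon bases shared with another annotated gene, and Gnas one of −3.16. Pseudogenes had 1 nuclear and 42 cytoplasmic calls of 50, and 4 and 33 after median-ratio scaling.

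Genes for small RNAs, whose mature forms lack poly(A) tails, were mostly above 0 in a single library. Of 78 tested, 60 were above 0 in 1 library only, and 9 were nuclear and 2 cytoplasmic calls. The nuclear ones included Snord96a, at 268 and 418 FPKM, Snord72, at 134 and 139 FPKM, and Snord14e, at 65.5 and 136 FPKM in nuclear RNA. Each was listed at 0 in both cytoplasmic libraries. Genes this short (81 to 90 bases) can reach such values from very few fragments. By the steps of low values, 1 read was worth 2.25 and 2.35 in the cytoplasmic libraries, against 1.0 and 1.04 in the nuclear ones. A value of 0 there thus sets little apart. Snord14e lies within an exon of Hspa8 in the annotation, and Hspa8 itself was at 10.0 and 3.00 FPKM in nuclear RNA and 85.1 and 85.9 FPKM in cytoplasmic RNA (−3.70). The listed ratios of Snord14e and Hspa8 had opposite signs, but reads of that exon and of the RNA within it cannot be told apart from these values. Of the other tested genes around nuclear small RNA calls, Eif2ak3 (−1.27) was a cytoplasmic call. Rack1 (−0.88), Rpl37 (−0.82) and Taf1d (−0.44) were not called. All 81 bases of Snord96a lie within an exon of Rack1, and all 100 bases of Gm23455, another nuclear call, within an exon of Taf1d. Reads of these pairs cannot be told apart either. Snord72 and Gm23346 lie within Rpl37 and Eif2ak3 but outside their exons. Among the other small RNA genes, 4 of 64 bases, Gm22464, Gm25951, Mir6998 and Mir7115, were all listed at 2073 FPKM in nuclear replicate 2 and at 0 in the other libraries.

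Both cytoplasmic calls among small RNAs were microRNA genes that overlap an exon of a coding gene which was itself a cytoplasmic call. Mir8114 was listed at 0 in both nuclear libraries and stood at 422 and 147 FPKM in cytoplasmic RNA, and 93 of its 111 bases lie within an exon of Glul. Mir546 was listed at 0 in both nuclear libraries and stood at 79.7 and 18.8 FPKM in cytoplasmic RNA, and all of its 121 bases lie within an exon of Ctdsp2. Ctdsp2, a phosphatase gene, had 0.448 and 0.393 FPKM in nuclear RNA against 1.77 and 2.19 FPKM in cytoplasmic RNA (−1.07, SE 0.24, adjusted p = 0.0145), and was not called after median-ratio scaling. Reads of a host exon and of a microRNA within it cannot be told apart from these values. The mature sequences are given to show what the annotated loci encode, from RefSeq (build GRCm38.p6), with the seed (bases 2 to 8) in capitals, and they share no seed. They lie on the plus strand of chr1:153899989-153900009 and of chr10:126998471-126998486.
mmu-miR-8114: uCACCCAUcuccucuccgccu
mmu-miR-546: aUGGUGGCacggaguc

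The nuclear libraries were less alike than the cytoplasmic ones. Pearson's r over the 6017 genes was 0.78 between the nuclear libraries and 0.92 between the cytoplasmic ones, and 0.24 to 0.31 between a nuclear and a cytoplasmic library. Among the 712 nuclear calls, nuclear replicate 1 was above nuclear replicate 2 in 618 (86.8%), with a median log2 difference of 0.65. Among the cytoplasmic calls the share was 52.4%, with a median of 0.03. All 30 nuclear genes with the largest ratios, chosen as above, were higher in nuclear replicate 1, 22 of them by at least 2 times. The called genes farthest apart between the nuclear libraries included Ins1, at 21.8 and 3.71 FPKM in nuclear RNA against 186 and 66.1 FPKM in cytoplasmic RNA, Pla2g4b, at 11.5 and 1.82 FPKM in nuclear RNA against 0.469 and 0 FPKM in cytoplasmic RNA, and Lsm4, at 15.0 and 2.56 FPKM in nuclear RNA against 35.2 and 29.4 FPKM in cytoplasmic RNA. Among those closest together was Cfl1, cofilin, at 3.84 FPKM in both nuclear libraries against 40.1 and 47.9 FPKM in cytoplasmic RNA (−3.21).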

How the data were processed

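The deposited table holds 1 FPKM value per gene and library. Per the submitters' processing notes, the authors used TopHat, Cuffdiff and build mm10. Not given in the sources used here were versions, annotation, strand setting and how libraries were scaled, so the FPKM are used as levels on the authors' own scale. All 4 MIN6 columns were mapped to samples by title, and 0 value columns were left without a sample.

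The log2(FPKM + 1) values were fitted by limma (version 3.58.1, R 4.3.3, lmFit then eBayes, no trend, 2 nuclear against 2 cytoplasmic libraries, adjusted over 6017 genes), and the fit was tested on simulated data. Python 3.11.15 was used for the rest. Values are given for each library, so that the error of a ratio is the SE of the fit (n = 2 each). An exact 0 is called listed at 0. Positions, exon number, GC content, coding length and gene overlaps came from GENCODE M21 (GRCm38), in which 25584 of the 26520 genes had an identifier. Identical proteins were found by translating its coding sequences. The microRNA sequences came from RefSeq, where 20 of 38 tested microRNA genes had an entry. Estimated reads and floors rest on annotated transcript lengths and cover counting error only. Chi-square per gene between the libraries of a fraction, on estimated reads, was 16.6 (nuclear) and 3.60 (cytoplasmic), above the 1 that sampling of a single library would give.

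The members, gene lists and tests were chosen with earlier results of these data known. The named genes were the 30 largest ratios each way among genes called on the authors' scaling and after median centring, with no overlap between fractions and 10 FPKM or more on average in the fraction that was higher. In each of 62 lists and symbol families, up to 3 each way were added at 5 FPKM. Transcription factors, hormones and channels of the markers, genes with identical proteins, called noncoding RNAs and genes with extreme nuclear spread were added too. Small RNA genes, Gm and Rik symbols and symbols carried by more than 1 gene were left out of the first 2 steps, and not every gene the rule gives is described. Other genes named were chosen after their values were seen. Alternatives were 3 other scalings, another pseudocount, 2 other filters, an intensity trend, a fit over all 8 libraries, a replicate block and leaving out each library, and 4 more were chosen after seeing the data. Some items are not reported here.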

Additional observations from a re-analysis of the deposited data

How the results depend on the processing

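On the authors' scaling 712 genes were higher in the nuclear libraries, 2775 were higher in the cytoplasmic ones, and the median ratio of all 6017 genes was −0.76. In that order the values were 1423, 1754 and −0.15 after median centring, 1088, 1773 and −0.35 with values summing to 1000000, 1399, 2002 and −0.24 after upper-quartile scaling, and, chosen after seeing the data, 1201, 1954 and −0.43 with a length-weighted sum of 1000000 and 1687, 1550 and 0.02 after median-ratio scaling. A pseudocount of 0.1 gave 670, 2719 and −1.1. With no filter on low values (14130 genes) they were 508, 3413 and −0.2, and with a mean of at least 5 FPKM (1757 genes) 239, 924 and −1.27. One fit over all 8 libraries gave 413 and 2161 calls, and an intensity trend 722 and 2805. Protein-coding genes alone gave 741 and 2773 of 5804. Leaving out 1 library at a time gave 0 to 814 nuclear calls, 0 to 2294 cytoplasmic calls and a median of −0.83 to −0.69. The lone library of a fraction is then assumed to vary like the other fraction. The cause of these differences was not tested.

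A replicate block gave 700 and 2681 calls, and a crossed block 778 and 2770. The numbers do not show pairing, since deviations from the group means of the libraries numbered 1 correlated at 0.045.

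Of the 308 genes whose ratios were followed, 306 kept their direction under each of the 17 alternatives that gave them a value. The higher filter and protein-coding genes alone leave some genes out. Many of the 308 had been chosen as called on the authors' scaling and after median centring, with no overlap between fractions. Leaving out a library cannot turn the ratio of a gene without overlap, so the 306 was largely set by that choice. Under the alternatives that left no library out, 219 of the 308 kept both direction and call. Nkx2-2 (−0.12) turned to 0.48 after median centring, 0.62 with values summing to 1000000, 0.47 after upper-quartile scaling, 0.52 with a length-weighted sum and 0.75 after median-ratio scaling, and ranged from −0.34 to 0.1 with 1 library left out. Slc30a8 (0.20) ranged from −0.15 to 0.55 with 1 library left out.

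Limits: there are 2 libraries a fraction, at estimated depths of 1.1 to 1.90 (in units of 1000000 reads). The calls depend on having both cytoplasmic libraries in the fit. With 1 of them left out, the spread is taken from the nuclear pair alone, which was less alike. Title and source field disagree on the fractions. Genes near 1 FPKM rest on few reads, and small RNA genes can do so at far higher values.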
